A study of Mus musculus with 6 samples.

Results

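The genes described here are the 4 lecticans (Acan, Bcan, Ncan and Vcan), the 4 hyaluronan link proteins (Hapln1 to Hapln4) and the tenascins Tnr and Tnc, taken by gene symbol from a table of RNA sequencing values in the mouse auditory nerve. All 10 had a row among the 17607 genes of the table, and all 10 passed the filter on low counts that left 15882 genes for testing. The mice were CBA/CaJ, an inbred strain for which the labels name no engineered allele, taken at 2 months (3 young mice) and 2.5 years (3 old mice). The auditory nerves dissected out of both cochleas of 1 mouse made up its library, and the labels name no agent and no difference between the groups other than age. The question was how the aggrecan-type matrix of cartilage and that of neural tissue compare between young and old nerves.

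Lecticans are large chondroitin sulfate proteoglycans that bind the long sugar hyaluronan through their amino-terminal domain. Link proteins lock that bond in place, and tenascins bind the other end of the lecticans and cross-link the aggregates. In cartilage, aggrecan (Acan) with link protein 1 (Hapln1) makes the tissue resist compression. In the nervous system, brevican (Bcan), neurocan (Ncan), Hapln2, Hapln4 and tenascin-R (Tnr) build perineuronal nets around cell bodies and synapses and the coats of nodes of Ranvier. Acan and Hapln1 also occur in perineuronal nets, so the grouping into cartilage-type (Acan, Hapln1), neural-type (Bcan, Ncan, Hapln2, Hapln4, Tnr) and broad genes (Vcan, Hapln3, Tnc) names the best known site of each gene and not its source here.

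Every lectican lies beside a link protein gene. In the mm10 coordinates of the table, Acan (chromosome 7, 79053483 to 79115099) and Hapln3 (79117027 to 79131018) converge with 1927 bases between them, and Ncan (chromosome 8, 70093085 to 70120844) and Hapln4 (70083529 to 70090862) converge with 2222 bases between them. Vcan (chromosome 13, 89655310 to 89742512) and Hapln1 (89540636 to 89611832) converge across 43477 bases. Bcan (chromosome 3, 87987531 to 88000356) and Hapln2 (88021750 to 88027511) stand in tandem on the minus strand, 21393 bases apart. Tnr (chromosome 1, 159523769 to 159924922) and Tnc (chromosome 4, 63959785 to 64047015) have no such neighbour in this family. Values are per gene over all its exons, so splice forms of the lecticans are not separated. By GENCODE M21, an exon of Tnc overlaps an exon of 8030451A03Rik on the opposite strand, and reads of the overlap cannot be told apart since no source says whether counting used the strand.

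The 250 bases before the RefSeq start site (GRCm38.p6) are shown for the 3 genes that fell with age and had an entry, Acan, Tnr and Tnc, and for Hapln2, whose log2 fold change was the highest of the 10. Hapln4 had no entry, and 9 of the 10 genes matched. The RefSeq start site of Acan lies 257 bases before the gene start given above, while those of Tnr, Tnc and Hapln2 coincide with theirs. Capitals mark, on either strand, the SOX factor cores ACAAT and ACAAAG, the GC box GGGCGG and the TATA box TATAAA. Sequences run 5′ to 3′ in the direction of the gene.
Acan, chr7:79052976-79053225, plus strand: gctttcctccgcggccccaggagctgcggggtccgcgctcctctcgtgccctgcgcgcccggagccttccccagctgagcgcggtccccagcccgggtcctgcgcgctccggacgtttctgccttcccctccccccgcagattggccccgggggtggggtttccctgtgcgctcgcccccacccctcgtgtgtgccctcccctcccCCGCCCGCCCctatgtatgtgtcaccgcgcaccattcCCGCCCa
Tnr, chr1:159523519-159523768, plus strand: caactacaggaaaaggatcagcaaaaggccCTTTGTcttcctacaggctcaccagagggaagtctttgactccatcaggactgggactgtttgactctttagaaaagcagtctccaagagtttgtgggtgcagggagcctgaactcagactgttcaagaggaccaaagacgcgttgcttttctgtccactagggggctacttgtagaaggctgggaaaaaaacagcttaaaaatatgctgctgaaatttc
Tnc, chr4:64047016-64047265, minus strand: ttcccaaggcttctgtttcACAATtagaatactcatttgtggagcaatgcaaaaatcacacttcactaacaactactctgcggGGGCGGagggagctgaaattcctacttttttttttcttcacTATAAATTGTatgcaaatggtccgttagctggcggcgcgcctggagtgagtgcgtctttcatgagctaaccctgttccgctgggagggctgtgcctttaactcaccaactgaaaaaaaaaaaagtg
Hapln2, chr3:88027512-88027761, minus strand: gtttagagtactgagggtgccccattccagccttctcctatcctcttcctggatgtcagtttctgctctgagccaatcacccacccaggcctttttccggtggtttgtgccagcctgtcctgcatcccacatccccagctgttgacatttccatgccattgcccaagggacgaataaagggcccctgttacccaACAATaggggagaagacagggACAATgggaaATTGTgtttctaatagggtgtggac

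The 3 windows of the falling genes had little in common. That of Acan held 26 CpG sites, a GC content of 74.4% and 3 GC boxes, of which 2 overlap, whereas that of Tnr held 2 CpG sites, a GC content of 46.8% and no GC box. A GC box occurred in 32.7% of all 32851 RefSeq windows of that length, and the median window held 6 CpG sites. The Tnc window held 2 ACAAT cores, 1 of which overlaps its TATA box, and 1 GC box. Hapln2 had 3 ACAAT cores, all near the start site, a motif found in 27.7% of all windows. The ACAAAG core of Tnr occurred in 16.5% and a TATA box in 12.4% of windows. These matches are letters only and say nothing on binding.

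Libraries held between 34587979 and 40841478 recovered reads. Values below are normalised read counts, that is reads divided by the size factor of the library. Each log2 fold change sets old against young, computed from log2(value + 1) and given ± SE, and adjusted p-values are limma's, over all 15882 tested genes. At a threshold of 0.05 the test called 34.6% of them, with 15.9% called higher and 18.7% called lower with age. Rises were 45.9% of the calls (2524 higher, 2969 lower) and 59.5% with upper-quartile scaling (3439 higher, 2338 lower). Transcript length was related to the change across genes (Spearman -0.382 over 14896 genes, which are not independent replicates), and in the tenth of genes with the longest transcripts 44.3% fell. The longest coding transcripts here span from 1711 nt (Hapln2) to 12427 nt (Vcan). For genes and lists, values with smooth length and GC trends removed follow where a result moved by over 1.5 times or its call changed. Shares and ratios between genes were not recomputed with the trends removed. Nerve markers were abundant, as in Nefm, a neurofilament of axons, whose young libraries held 63871 to 72405 and old ones 23230.0 to 41006. Genes of bone, cartilage and cochlear epithelium were present too, and no library consists of nerve cells alone. In such bulk tissue fewer cells of a type and less RNA per cell cannot be told apart.

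Of the 10 genes 4 fell with age and none rose. Acan of the cartilage type, Hapln4 and Tnr of the neural type and Tnc of the broad group passed. This was a share of 4 in 10, against 18.7% of all tested genes called lower and 34.6% called in either direction. The median log2 fold change was -0.83 for the 2 cartilage-type genes, -0.36 for the 5 neural-type genes and -0.44 for the 3 broad genes, against -0.0008 for all tested genes. The neural-type median was 0.01 with length and GC trends removed and -0.14 without old 1. The broad median is the value of Hapln3, a very low gene, and was 0.08 without old 2 and 0.13 without both young 1 and old 2. Of the cartilage-type genes 1 of 2 was lower and of the neural-type genes 2 of 5. The old libraries all lay below the young ones in the same 4 genes, and this held for 26.3% of tested genes (51.8% in either direction). With the length and GC trends removed 2 of the 10 were lower (Acan and Hapln4), where 12.7% of all tested genes were. Without young 2 there were 2 as well.

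**Figure D1:**
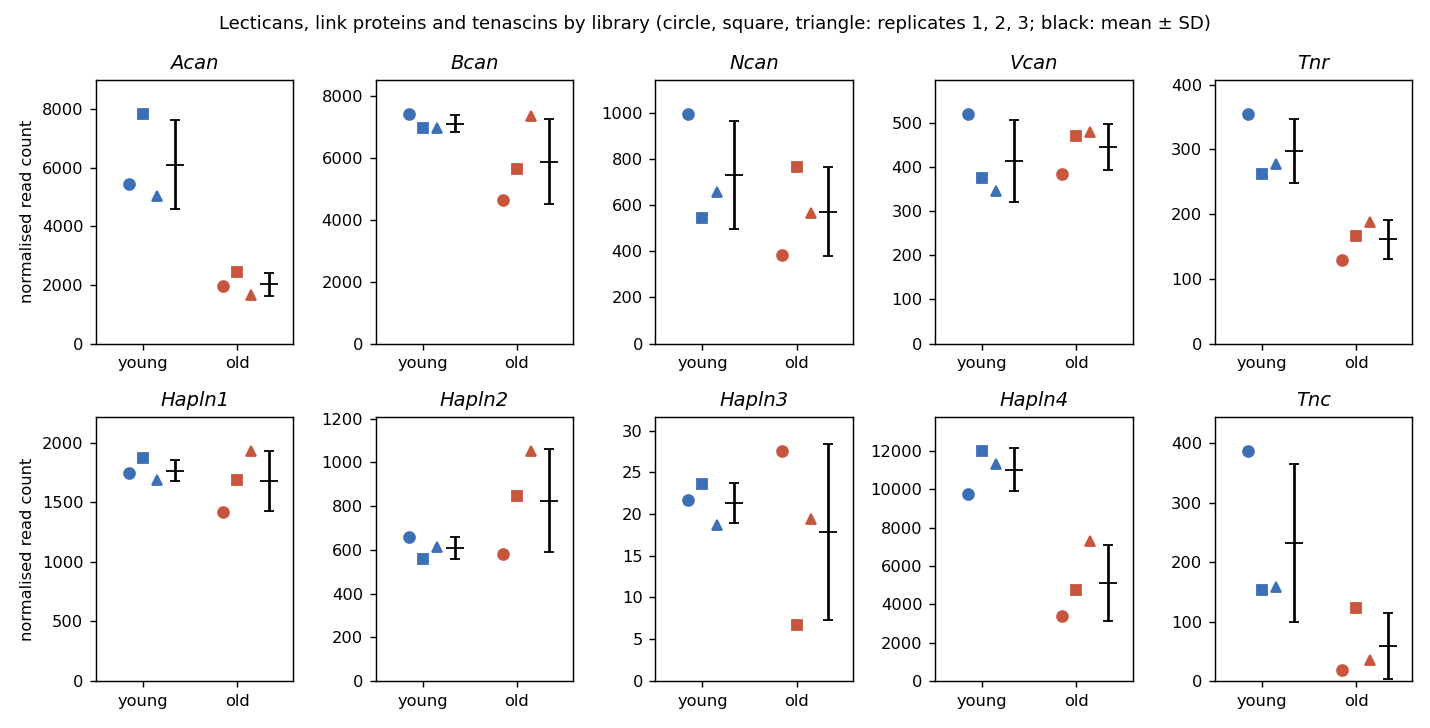
Normalised read count (y axis, from 0) of each gene in 3 young (blue) and 3 old (red) libraries, with circles, squares and triangles for replicates 1, 2 and 3 and black marks for the mean ± SD. All old libraries lie below all young ones in Acan, Tnr, Hapln4 and Tnc.

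Acan encodes aggrecan, the bulk proteoglycan of cartilage and a main component of perineuronal nets. Its normalised count was 5455, 7821 and 5021 in young libraries 1 to 3 and 1953, 2439.6 and 1660.4 in old libraries 1 to 3. The groups did not overlap, and the highest old library (old 2) stood far below the lowest young one (young 3). The mean fell from 6099 ± 1507 to 2018 ± 394 (SD, n = 3 each), a young level 3.02-fold the old one, with a log2 fold change of -1.59 ± 0.20 (95% interval -2.05 to -1.12, adjusted p = 0.00486). With the trends removed the value was -1.18 (adjusted p = 0.0137). Acan was called lower under each of the 18 alternatives, with log2 fold changes from -1.80 to -1.18.

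Hapln1 encodes the link protein that ties aggrecan to hyaluronan in cartilage. It stood at 1743, 1868 and 1689 in the young and at 1421, 1688 and 1926 in the old libraries. The old values lay on both sides of the young ones. The log2 fold change was -0.08 ± 0.12 (95% interval -0.35 to 0.19, adjusted p = 0.600), an interval that leaves out a fall as large as that of Acan.

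Among the neural lecticans, Bcan encodes brevican, which is made by glia and neurons and sits in perineuronal nets and at nodes. It was at 7417, 6955 and 6962 in young 1, 2 and 3 and at 4630.4, 5643 and 7349 in old 1, 2 and 3. Old 3 lay within the young range and the other two old libraries below it. The log2 fold change was -0.30 ± 0.16 (95% interval -0.67 to 0.06, adjusted p = 0.170), and without old 3 it was -0.48 and passed (adjusted p = 0.0118). With the trends removed it was 0.01.

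Ncan encodes neurocan, a lectican of the developing and injured nervous system. Its counts of 996, 547 and 657 in the young and 384, 767 and 569 in the old libraries overlapped widely. Old against young gave -0.36 ± 0.30 on the log2 scale (95% interval -1.06 to 0.33, adjusted p = 0.368). It was 0.04 with the trends removed, and single libraries left out moved it between -0.60 (without old 2) and -0.10 (without old 1).

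Vcan encodes versican, which occurs in many soft tissues and in a splice form at nodes of Ranvier. It was at 519, 375 and 345 in the young and at 384, 469.7 and 479.7 in the old libraries, with young 1 the highest of all. On the log2 scale the change was 0.12 ± 0.18 (95% interval -0.29 to 0.54, adjusted p = 0.619). Its value was 0.45 with the trends removed (adjusted p = 0.0953).

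Of the neural link proteins, Hapln4 fell and Hapln2 did not pass. Hapln4 encodes the link protein of perineuronal nets and of perisynaptic matrix in the brainstem and cerebellum, where it partners brevican. It fell from 9774, 11969.8 and 11315 in young 1, 2 and 3 to 3382, 4733 and 7283 in old 1, 2 and 3. The groups did not overlap, and old 3 came nearest to the young libraries. The mean went from 11019 ± 1127 to 5133 ± 1981, with a log2 fold change of -1.17 ± 0.25 (95% interval -1.76 to -0.57, adjusted p = 0.0138). With the trends removed the value was -0.95 (adjusted p = 0.0261). Leaving out young 2 ended the call (adjusted p = 0.0555), as did leaving out both young 1 and old 2 (0.0674).

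Hapln2 encodes the link protein of nodes of Ranvier in the central nervous system, made by oligodendrocytes. It stood at 659, 559 and 611 in the young and at 582, 845 and 1050.2 in the old libraries. Old 1 lay within the young range and old 2 and old 3 above it. The log2 fold change was 0.40 ± 0.21 (95% interval -0.08 to 0.88, adjusted p = 0.169), and without old 1 it was 0.63 and passed (adjusted p = 0.0235).

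Hapln3, a link protein of vessels and other tissues, was near the lower limit of the assay, at 21.6, 23.6 and 18.7 in the young and 27.5, 6.64 and 19.3 in the old libraries. Its 95% interval of the log2 fold change ran from -1.65 to 0.77 (adjusted p = 0.537), an interval that holds a 2-fold fall as well as no change. Without old 2 the value was 0.12.

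The tenascins were low and both fell. Tnr encodes tenascin-R, a nervous system tenascin that binds brevican and clusters in nets and nodes. It was at 354, 262 and 277 in the young and at 129, 166 and 189 in the old libraries, without overlap. This was a log2 fold change of -0.89 ± 0.19 (95% interval -1.34 to -0.44, adjusted p = 0.0136). The transcript is long (12202 nt), and after removal of the trends the value was -0.47 and did not pass (adjusted p = 0.0935). The call was also lost without both young 1 and old 2 (adjusted p = 0.0754).

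Tnc encodes tenascin-C, which marks developing, injured and mechanically loaded connective tissue. It stood at 386, 153 and 157 in the young and at 19.0, 122 and 34.8 in the old libraries. Young 1 was well above the other young libraries and old 2 well above the other old ones, yet the groups did not overlap. The log2 fold change was -2.25 ± 0.68 (95% interval -3.84 to -0.65, adjusted p = 0.0397). The adjusted p was 0.0641 in edgeR and 0.0779 with the trends removed, and of the 6 fits that left out 1 library only the one without old 2 passed (0.0156). Adjusted p was 0.110 without young 1, 0.0787 without young 2, 0.0763 without young 3, 0.103 without old 1 and 0.0871 without old 3.

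**Figure D2:**
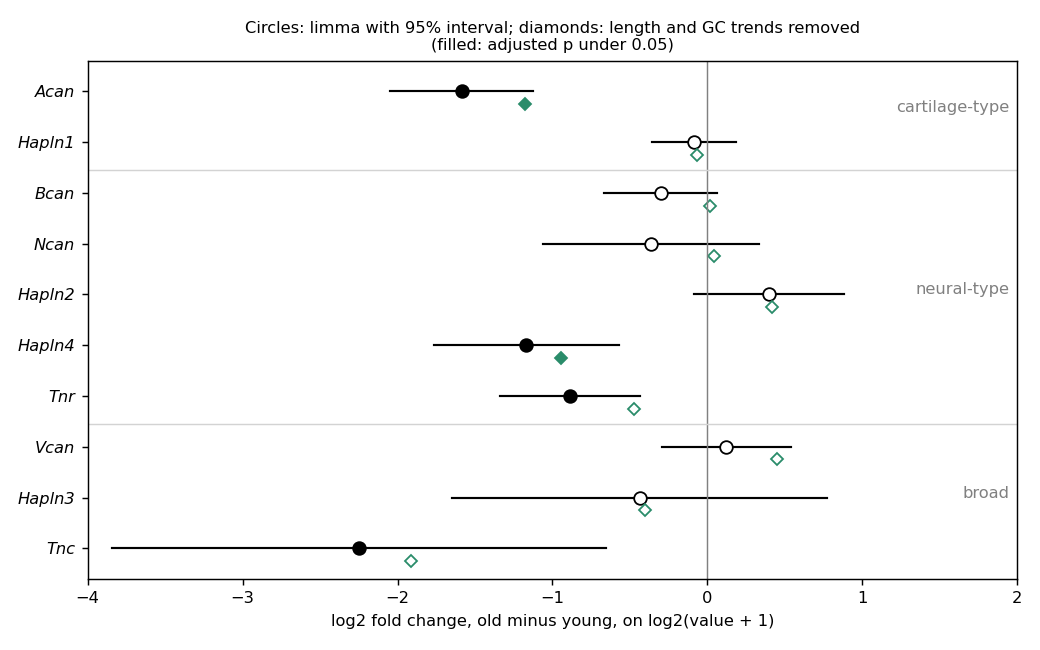
Log2 fold change (x axis, old minus young) of the 10 genes with its 95% interval from limma (black circles), and the value with length and GC trends removed (green diamonds); filled symbols have an adjusted p under 0.05. Acan and Hapln4 are filled in both, Tnr and Tnc in the first only, and the intervals of the other 6 genes include 0.

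Per kilobase of the longest coding transcript, the neural genes Hapln4 and Bcan led in both groups. In young nerves the level of Hapln4 was 3021 ± 309 normalised counts per kilobase and that of Bcan 2264 ± 84.4, at the 95.9th and 93.7th percentile of tested genes. Acan followed with 829 ± 205, then Hapln2 (356 ± 29.2), Hapln1 (309 ± 16.0) and Ncan (102 ± 32.5). Vcan (33.2 ± 7.50), Tnc (32.7 ± 18.8) and Tnr (24.4 ± 4.04) overlapped each other in their libraries, and Hapln3 was the lowest at 6.35 ± 0.73. In old nerves Bcan (1870.1 ± 437) and Hapln4 (1407 ± 543) overlapped. Acan (274 ± 53.5) had dropped behind Hapln2 (483 ± 137) and overlapped Hapln1 (294 ± 44.3). Its percentile among tested genes went from 76.5 to 46.3. The order depends on the transcript chosen: by the shortest annotated coding transcript, which can be a fragment, Bcan came first and Vcan the fourth.

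The make-up of both families shifted. Of the summed lectican level per kilobase, Acan made up 22.6%, 31.4% and 22.6% in young libraries 1 to 3 and 14.6%, 14.6% and 8.41% in old 1, 2 and 3. The share of Bcan was 71.9%, 65.4% and 73.4% in the young and 80.8%, 79.1% and 87.2% in the old libraries. Neither share overlapped between the groups, but these shares are not independent, since a fall of Acan alone raises the share of Bcan. Per kilobase of the longest coding transcript, brevican was the main lectican transcript in all 6 libraries. In normalised counts not divided by length, young 2 held more Acan (7821) than Bcan (6955).

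Of the summed link protein level per kilobase, Hapln4 made up 79.4%, 83.2% and 82.5% in the young and 60.8%, 62.1% and 67.6% in the old libraries. Hapln2 made up 11.4%, 8.29% and 9.50% in the young and 22.3%, 23.6% and 20.8% in the old libraries, and Hapln1 9.04%, 8.29% and 7.86% against 16.3%, 14.1% and 11.4%. None of the 3 shares overlapped between the groups, but they are not independent, since a fall of Hapln4 alone raises the other shares. Hapln1 itself had a log2 fold change of -0.08. How often such shares overlap in other gene families was not computed. The summed level was lower in each old library than in any young one, from a mean of 3692.6 ± 289 to 2189 ± 720 per kilobase for link proteins and from 3228 ± 189 to 2259.8 ± 430 for lecticans, so a larger share of Hapln2 or Bcan was not accompanied by a higher family total.

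**Figure D3:**
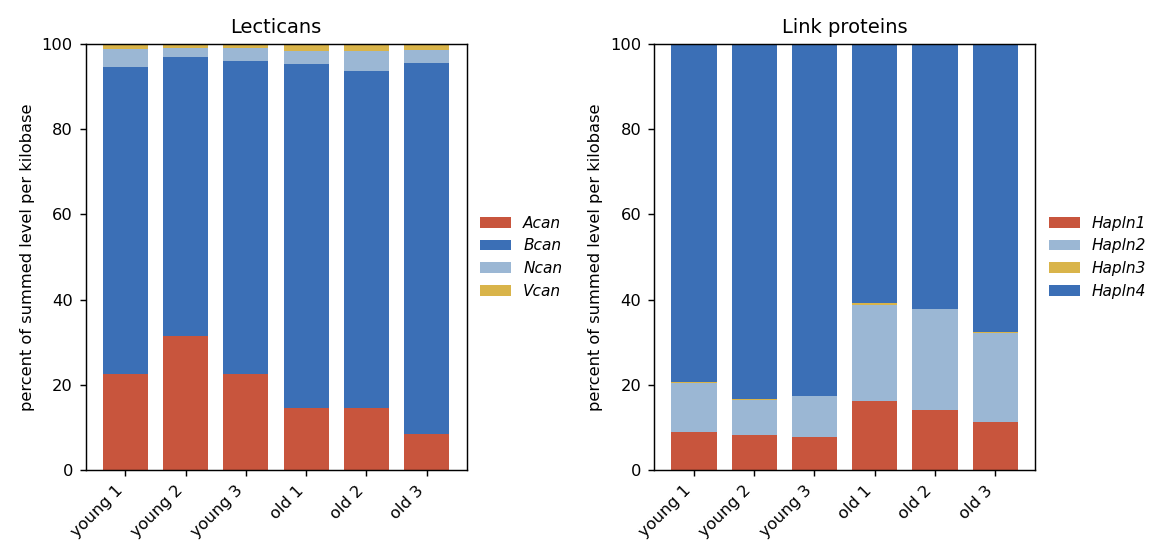
Share (y axis, percent) of each gene in the summed level per kilobase of the lecticans (left) and link proteins (right), 1 bar per library. In the old libraries the Acan share is at most 14.6% and the Hapln4 share at most 67.6%, below every young library.

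Ratios between genes within a library depend little on how libraries are scaled. Low genes such as Hapln3 are an exception, since a pseudocount of 1 was added to both values. Length and GC trends were not removed from the ratios, although the genes of a pair differ in length. With them removed, log2 fold changes went from -1.59 to -1.18 for Acan and from -0.08 to -0.06 for Hapln1. They went from -0.30 to 0.01 for Bcan, -0.36 to 0.04 for Ncan and 0.40 to 0.42 for Hapln2. Hapln4 went from -1.17 to -0.95 and Tnr from -0.89 to -0.47. For 15 pairs, the log2 ratio was compared by an exact two-sided permutation test of 3 against 3 libraries, which cannot go below p = 0.1, and Benjamini-Hochberg adjustment over the 15 pairs gave 0.188 for those at that limit. The ratio of Acan to Bcan was -0.44, 0.17 and -0.47 in young libraries 1 to 3 and -1.25, -1.21 and -2.15 in old 1, 2 and 3, a difference of -1.28 (exact p = 0.1). Acan also lost ground, without overlap, to Ncan (difference -1.22), to Hapln2 (-1.98) and to Tnr (-0.70), each with exact p = 0.1. Its ratio to Hapln4 overlapped, with a difference of -0.42 (exact p = 0.6).

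For Hapln1 the log2 ratio to Hapln4 was -2.49, -2.68 and -2.74 in the young and -1.25, -1.49 and -1.92 in the old libraries, a difference of 1.08 (exact p = 0.1). Its ratio to Tnr differed by 0.80 and that to Hapln2 by -0.48, both without overlap (exact p = 0.1 each). Those to Bcan (0.22, exact p = 0.2) and Ncan (0.28, exact p = 0.6) overlapped. Of the 10 pairs of a cartilage-type with a neural-type gene, 5 were lower in old nerves without overlap, 2 were higher and 3 overlapped. Each pair reuses Acan or Hapln1, so the pairs are independent neither of each other nor of the changes of single genes. The share of ratios without overlap among other gene pairs was not computed. Among single tested genes 51.8% did not overlap.

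Among the 4 neighbouring pairs of the genome, only Bcan and Hapln2, the tandem pair, had a ratio without overlap. Its log2 value was 3.49, 3.63 and 3.51 in the young and 2.99, 2.74 and 2.81 in the old libraries (difference -0.70, exact p = 0.1). The ratio of Acan to Hapln3 differed by -1.15 (exact p = 0.4), with old 2 at 8.32 beside 6.10 and 6.35 in old 1 and old 3, and that of Ncan to Hapln4 by 0.80 (exact p = 0.2). The ratio of Vcan to Hapln1 differed by 0.21 (exact p = 0.4). The ratio of the tenascins, Tnc to Tnr, overlapped too (difference -1.36, exact p = 0.3).

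**Figure D4:**
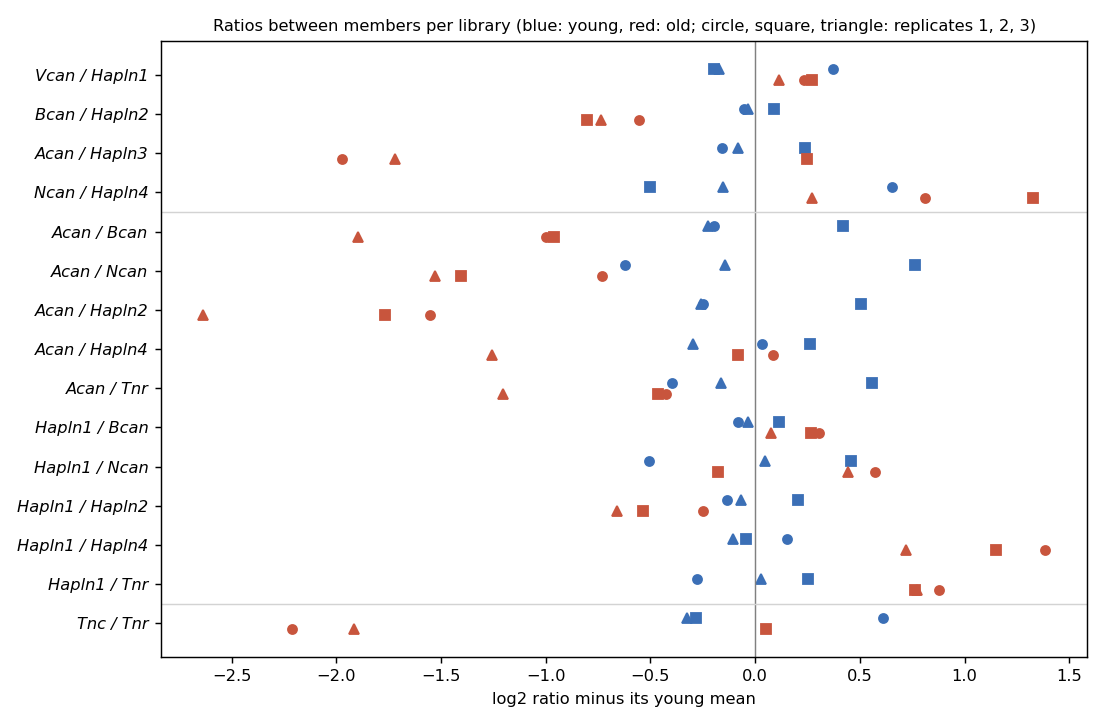
Log2 ratio between 2 genes minus its mean over the young libraries (x axis), for the 4 genomic neighbours (top), the 10 cartilage-type against neural-type pairs (middle) and the tenascins (bottom); blue is young, red is old, and circles, squares and triangles are replicates 1, 2 and 3. The red symbols lie to the left of the blue ones for Acan against Bcan, Ncan, Hapln2 and Tnr. The same holds for Hapln1 against Hapln2 and for Bcan against Hapln2. They lie to the right for Hapln1 against Hapln4 and Tnr.

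The partners of the lecticans were read from lists of pathway genes. Hyaluronan, the polymer they bind, is made by Has1 to Has3. Of 12 tested genes of hyaluronan synthesis, breakdown and reception 2 fell and 1 rose. Their median log2 fold change was -0.07, and 0.07 with the trends removed. Has3, a hyaluronan synthase, was at 595, 417 and 455 in the young and 148, 214 and 219 in the old libraries (log2 fold change -1.34 ± 0.20, adjusted p = 0.00604). Tmem2, a cell surface hyaluronidase, fell by 0.48 on the log2 scale (adjusted p = 0.00680). Cd44, the main hyaluronan receptor of leukocytes and glia, rose by a log2 fold change of 1.04 ± 0.18 (adjusted p = 0.00807). Cemip, a hyaluronan-degrading protein and the most abundant of the list, overlapped between groups (-0.40, adjusted p = 0.188; -0.08 with the trends removed).

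Genes that build the chondroitin sulfate chains of lecticans were lower in 9 of 27 cases and higher in 1. Their median was -0.30, and -0.18 with the trends removed. Chpf, a polymerising factor, went from 3990.3, 4005 and 3876 in the young to 1661, 2214 and 2447 in the old libraries (-0.93 ± 0.14, adjusted p = 0.00573; -0.52 with the trends removed). The synthase Chsy1 (-0.73 ± 0.10, adjusted p = 0.00510) and the sulfotransferase Chst12 (-0.78 ± 0.13, adjusted p = 0.00732) fell too. The single rise was that of Papss2, which makes the sulfate donor (1.53). With the length and GC trends removed 4 of the 27 were lower and 2 higher. The lower count was 5 without young 1, without young 2 or without old 1, and Papss1, the most abundant of the list, was at 0.10 (adjusted p = 0.219; 0.03 with the trends removed).

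Of the 10 genes for lectican-cleaving proteases and their inhibitor, 1 fell, the aggrecanase Adamts5 (-0.34 ± 0.09, adjusted p = 0.0245), and with the trends removed it stood at -0.05. None fell without young 2 or without old 1. Timp3, the inhibitor of these enzymes, had non-overlapping groups and an adjusted p of 0.0516 (log2 fold change 0.34). It passed in edgeR (0.0445), in DESeq2 (0.00671), with the trends removed (0.0308) and with upper-quartile scaling (0.0257). Without both young 1 and old 2 Timp3 was at 0.23 and did not pass (adjusted p = 0.307). No gene of the list was higher with any 1 young library, old 1 or old 2 left out. With the trends removed 2 genes of the list were higher and 0 lower. Of the 13 receptors on neurons and glia 4 fell and 1 rose (5 and 4 without old 3, and 3 and 2 with the trends removed). Ptprs, a neuronal receptor of chondroitin sulfate, fell by 1.05 on the log2 scale (adjusted p = 0.00464; -0.47 with the trends removed), and Rtn4rl2 by 1.34 (adjusted p = 0.00926). Ptprz1, a glial phosphatase that is itself a chondroitin sulfate proteoglycan and binds tenascins, rose by 1.01 ± 0.12 (adjusted p = 0.00464). The list of further net, nodal and tenascin family genes held 1 rise (Otx2, 2.30) and 1 fall (Fbln2, -0.37) among 12. With the trends removed Fbln2 was at -0.04 (adjusted p = 0.732) and no gene of the list was lower. The lower count was also 0 without young 2 or young 3, 2 without old 1 or old 3 and 3 without old 2. The tenascin Tnxb overlapped between groups (-0.44, adjusted p = 0.118; 0.34 with the trends removed).

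Marker lists of the cells that could carry these transcripts were read in the same fit. The 18 tested cartilage genes split, with 5 lower and 5 higher, and 1 and 4 with the trends removed. Their median was -0.09, and -0.03 with the trends removed. Their summed level ranged from 63589 to 73616 in the young and from 65989.7 to 89071 in the old libraries. Col2a1, the collagen of cartilage, fell with Acan (-1.84 ± 0.20, adjusted p = 0.00427), as did Col11a2 (-0.48 ± 0.13, adjusted p = 0.0311, but 0.18 with the trends removed). Cnmd, which encodes chondromodulin, a cartilage protein, rose to 2.74 times its young mean (adjusted p = 0.00784), as did Sox6, a partner of Sox9 in cartilage (0.74 ± 0.13). The cartilage count was 2 lower without young 2 or without young 3. Sox9 itself overlapped (-0.24, adjusted p = 0.431; -0.15 with the trends removed). In the bone list (osteoblasts and osteocytes) 10 of 15 genes fell, with no rise and a median of -1.17. Their summed level, most of it Spp1, was 133427 to 137274 in the young and 119829 to 126751 in the old libraries, with Bglap at 0 in old 3. The number that fell was 6 without young 1 or without old 1. The part of cartilage and bone in the falls of Acan and Tnc was not tested.

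Col1a1, the main collagen of bone, was at 2980.5, 1173 and 1832 in the young and 141, 829 and 121 in the old libraries (adjusted p = 0.0208, and 0.0510 with the trends removed). Young 1 and old 2 were the highest of their groups, as in Tnc and also in the neural-type Ncan. The fibroblast list had 2 of 10 genes lower, 4 without old 2 and 1 with the trends removed. Its median was -0.15, and -0.29 with the trends removed. The sum over fibroblast genes ranged from 43919 to 52179 in the young and from 33157 to 67095 in the old libraries. The part of these cells in the level of Tnc was not tested.

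Of 12 neuron markers 5 fell and none rose (median -0.45), and their summed level was 366140.0 to 394684 in the young and 211963, 265754 and 318765 in old 1, 2 and 3. The order old 1, old 2, old 3 from lowest to highest was also that of 6 of the 10 genes. These were Hapln4, Bcan and Tnr but also Hapln1, Hapln2 and Vcan. The share of all tested genes with that order was not computed, so the count links no gene to neurons. The neuron count was 3 lower with young 2 or young 3 left out, and 0 with young 1 and old 2 left out together. Rbfox3, the gene of NeuN, fell from 2155, 1714 and 1704 in the young to 557, 752 and 1065 in the old libraries (-1.27 ± 0.23, adjusted p = 0.00812). The part of neuron number in the fall of Hapln4 was not tested.

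Of 13 oligodendrocyte genes 1 rose (Aspa, 0.50) and 1 fell (Ugt8a, -0.46). Aspa was at 0.08 with the trends removed (adjusted p = 0.732), where the list had 0 higher and 2 lower, and no gene was higher when any 1 young library was left out. Their sum ranged from 104366 to 133391 in the young and from 101435 to 116513 in the old libraries. Opalin, a marker of mature oligodendrocytes and the lowest gene of the list, stood near 0. It was at 32.9, 5.90 and 3.30 in the young and 1.06, 13.3 and 13.5 in the old libraries. Other genes of the list stood well above that. Mog was at 1436, 974 and 902 in the young and 649, 994 and 736 in the old libraries. Mobp was at 4390, 2985 and 2889 in the young and 2523, 2856 and 5038 in the old ones. Of 10 astrocyte genes 4 rose and none fell (median 0.31, but 0.67 with young 1 left out and 0.69 with old 2 left out too), with a sum of 80773 to 91383 in the young and 114973 to 123469 in the old libraries. Gfap, a filament of reactive glia, rose by 1.23 ± 0.19 (adjusted p = 0.00657). Of the 7 oligodendrocyte precursor genes 1 rose (Sox6) and 1 fell (Gpr17, -1.29), of the 10 Schwann cell myelin genes 2 rose and 4 fell, with Egr2, a regulator of myelination, among the rises (0.71), and of the 11 genes of hair cells and supporting epithelium none passed. Macrophage genes rose in 11 of 12 cases (median 2.09), as in C1qa (2.16), a complement component. Their part in the levels of Bcan, Ncan, Hapln2 and Tnr was not tested.

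**Figure D5:**
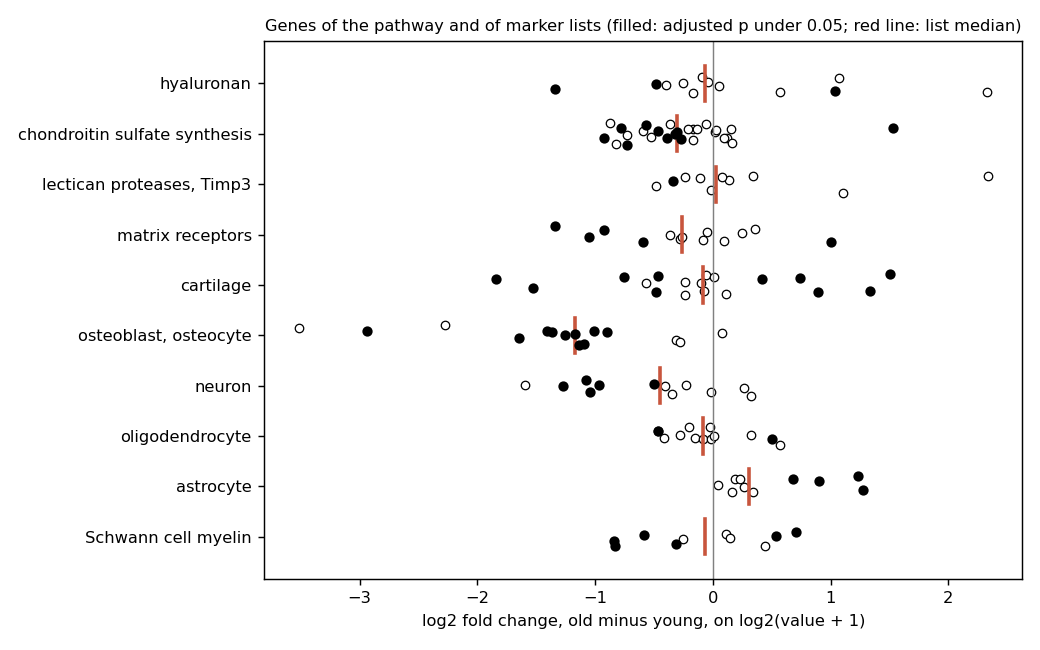
Log2 fold change (x axis, old minus young) of each tested gene in 10 pathway and marker lists, 1 point per gene, filled where the adjusted p is under 0.05, with a red line at the list median. The osteoblast list lies lowest (median -1.17), the chondroitin sulfate list at -0.30 and the cartilage list is spread on both sides of 0.

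Genes with the most similar pattern over the 6 libraries were found by the root mean square difference of log2 values centred on each gene, among 13260 other tested genes with a mean of at least 100. For Acan they were Aoc3 (0.21 log2 units), Smpd3 (0.22) and Slc4a11 (0.24), and Smpd3 is in the bone list. For Tnr they were Syn2 (0.04), which encodes the vesicle protein synapsin II, Olfm1 (0.04) and Slc25a22 (0.05), the mitochondrial glutamate carrier. All 3 were lower in old libraries without overlap, which their selection by the pattern of Tnr largely fixed. For Bcan they were Ptp4a3 (0.02), Tmem266 (0.04) and Sema3a (0.04), a guidance molecule held in perineuronal nets and present in the net and node list. For Hapln1 they were Trappc12, Slc41a3 and Auh (each 0.03), and for Hapln2 2810410L24Rik (0.06), Mcub (0.10) and Rpl26 (0.11). The distances describe 6 libraries that share their depth and age groups and carry no test.

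The authors' deposited table gives a signed fold change of -3.02 for Acan (FDR 9.33e-13), -2.15 for Hapln4 (FDR 6.51e-05), -1.85 for Tnr (FDR 5.07e-04) and -3.95 for Tnc (FDR 0.0075). In the authors' deposited table the other 6 genes had an FDR of 0.108 or more.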

How the data were processed

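RNA of 3 young and 3 old auditory nerves was sequenced after TruSeq library preparation, per the labels' protocols. The authors aligned and counted with tools that the submitters' processing notes list as TopHat2, Partek and DESeq2 on mm10; no source read here gives versions, annotation or strand setting. The deposited signal per gene is a read count divided by 1 size factor per library, as the values show: dividing by the value of 1 read left 99.9% of values above 0 within 0.1 of a whole number. The authors also deposited a p-value, an FDR and a score, their signed fold change, per gene.

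The main test was limma (3.58.1) with trended variances on log2(value + 1). P-values were two-sided and adjusted by Benjamini-Hochberg, and 0.05 was the threshold. Genes were those kept by filterByExpr on recovered reads (minimum count 10, minimum total 15). edgeR (4.0.16) and DESeq2 (1.42.0) on recovered reads, other scalings, filters and pseudocounts, the replicate number as a block, libraries left out and length and GC trends removed with mgcv (1.9.3) were alternatives. Length and GC came from the longest coding transcript in GENCODE M21, matched by symbol for 93.8% of tested genes. The test was tested on simulated data for old against young over 15882 genes, where it found 76.1% of 2-fold and 29.85% of 1.5-fold changes. The simulation gave 140 calls where the real data gave 5493, so recovery in the real data can differ.

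The members and lists were chosen with earlier results of these data known. All 10 members were named. From each other list the 3 genes with the smallest p among those that passed and the most abundant gene were eligible, and the 3 nearest patterns of 5 members were named. List genes outside this rule, such as Papss2, Sox9, Col1a1, Tnxb, Opalin, Mog and Mobp, were chosen after their values were seen. Replicates are separate mice. No 2 libraries of a group matched within counting noise.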

Additional observations from a re-analysis of the deposited data

How the results depend on the processing

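The count of genes that passed was 5493. It was 2711 (1078 higher, 1633 lower) with the replicate block and 1776 (831 higher, 945 lower) without both young 1 and old 2. With 1 library left out it ranged from 2589 to 6117, rises from 1159 to 2757 and falls from 1430.0 to 3360.0. Members lower in old nerves numbered 4, and 2 with the replicate block, 2 without both young 1 and old 2, 2 with the length and GC trends removed and 2 to 4 with 1 library left out; members that passed in either direction numbered the same. Members higher numbered 0 to 1 with 1 library left out (Hapln2 without old 1). Neural-type genes lower numbered 2, and 1 with the replicate block, 0 without both young 1 and old 2, 1 with the trends removed and 1 to 3 with 1 library left out. The cartilage-type count was 1 throughout. Col11a2 went from -0.48 to 0.18 with the trends removed. List genes that passed ranged from 49 to 82, and ratio pairs without overlap from 8 to 10, with 1 library left out. The replicate block cost Tnr (adjusted p = 0.0550) and Tnc (0.0890) their calls. Same-numbered mice did not deviate together (correlations of -0.292, -0.412 and -0.0499), so the numbers were not taken as pairs. Hapln3 rests on few reads, at 27.5 normalised counts or fewer in each library.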
